A study of Ovis aries with 6 samples.

Results

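Skin RNA of 3 Super Merino (SM) and 3 Small Tail Han (STH) ewes was examined for 10 genes whose products build, fuel or supply the fibres of skeletal muscle: ACTA1, NEB, TTN, ACTN2, ACTN3, MYH2, MYH7, CKM, MB and TNNT3. The members were taken by their symbol in the deposited gene list, where 8 of the 10 were present among 28394 genes, and MYH2 and TNNT3 had no gene under these symbols. SM is a fine wool breed and STH a coarse wool breed, and no treatment was given to either. The sheep, which the labels give as 9 months of age and the methods of the study as younger, were kept on 1 farm, and the skin was cut from behind the shoulder blade. The depth of the cut, and whether it reached the muscle layer beneath the skin, is not given in the sources used here. Values for single sheep are given in 1 order throughout, which is 128, 30034 and 30126 for the SM breed, then XW3, XW5 and XW8 for the STH breed.

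A skeletal muscle fibre is filled with sarcomeres, in which thin filaments of actin slide along thick filaments of myosin. The thin filaments are anchored in the Z-disc by alpha-actinin and run along nebulin, whereas titin is the elastic link from the Z-disc to the thick filament. Skin holds muscle of 2 kinds. The panniculus, a sheet of skeletal muscle, lies beneath the dermis, and smooth muscle forms the arrector pili muscles of the follicles and the walls of vessels. Both kinds use actin and myosin, but from different genes of the same families.

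Between 28870583 and 44645091 counts were assigned to genes in each sheep. Counts were scaled by the TMM method to CPM, the count of a gene relative to the normalized library size, on which scale 3 counts, taken as the limit that a count of 0 allows, corresponded to between 0.0664 and 0.0993 CPM, for counting error only. SM and STH were compared with the quasi-likelihood test of edgeR over 15320 genes, those in which 3 sheep or more had 10 counts or more, and p-values were adjusted over all of these (Benjamini-Hochberg). To be called, a gene needed an adjusted p below 0.05 and a change of more than 1.5-fold. Fold changes are SM relative to STH on the log2 scale, negative where STH was higher. With 3 sheep against 3, an exact permutation test of a single gene cannot give a p below 0.1. In skin as a whole, fewer muscle cells and less RNA per muscle cell cannot be told apart.

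The skeletal muscle genes were low in every sheep, and some of them were not counted at all. A wider list of 62 other genes of the skeletal muscle fibre was examined, of which 56 were in the files. Of these, 13 had a count of 0 in all 6 sheep, which allows up to 3 counts in each, and all 13 also had an RPKM (the authors' value per gene length and sequencing depth) of 0. They were the myosin light chains MYL1 and MYL2, the M-band protein MYOM2, the Z-disc proteins MYOZ2 and MYOT, the calcium regulators SLN and PVALB, the ubiquitin ligase TRIM54, and the regulators of muscle cell identity MYOD1, MYOG, MYF5, MYF6 and PAX7. Over the whole series, 10571 of 28394 genes had a count of 0 in all 6 sheep, of which 4291 had a nonzero RPKM. MYLPF, the regulatory light chain of fast fibres, had 9 counts over the SM sheep and 3 over the STH sheep. In all, 23 of the 56 genes stayed below 0.1 RPKM in every sheep and 12 reached 1 RPKM in at least 1 sheep. Other genes of the list were clearly counted, with a mean of 6.33 RPKM for MYOZ3 and 3.19 RPKM for TCAP, both of the Z-disc, 3.86 RPKM for the slow troponin T TNNT1 and 1.26 RPKM for the fast troponin I TNNI2. The list was thus in part at 0 and in part counted, and the members are described here by their symbols rather than as a measure of fibres.

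**Figure D1:**
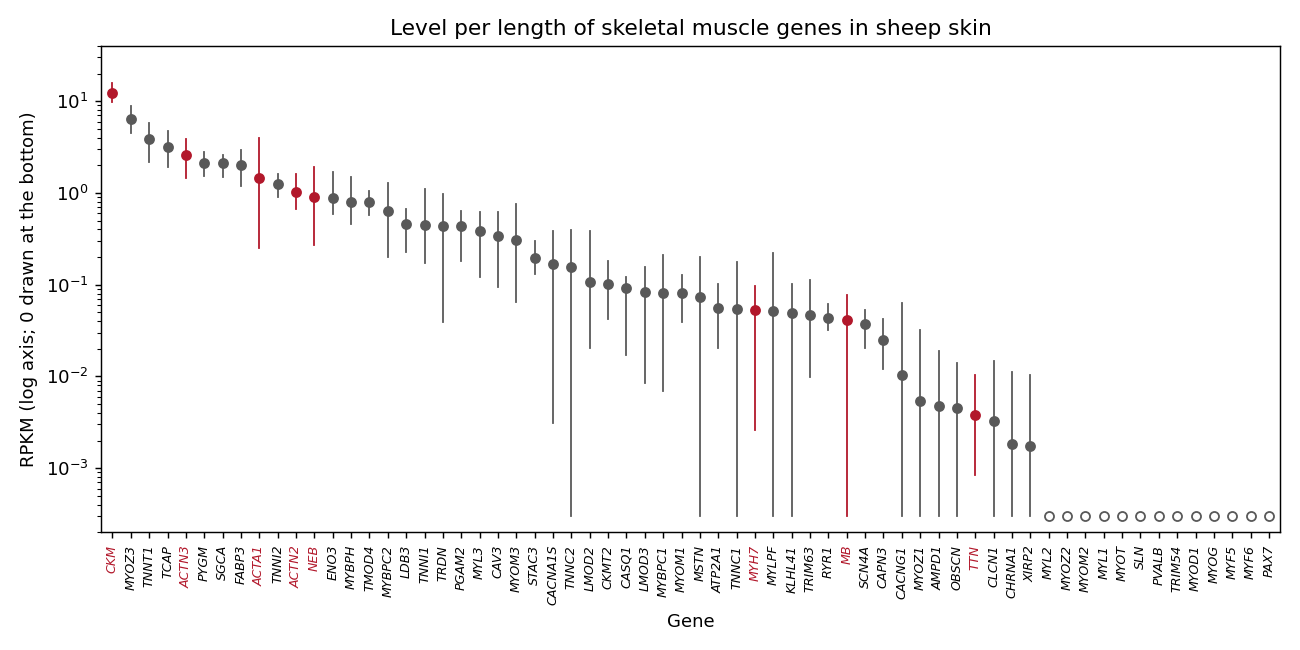
RPKM (vertical axis, logarithmic) of the 8 members (red) and of the 56 genes of the wider skeletal muscle list (grey), ordered by their mean over the 6 sheep, with lines from the lowest to the highest sheep. CKM was highest at a mean of 12.4 RPKM, and the 13 open circles at the right are genes at 0 in every sheep.

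Per length, CKM stood above the other members and TTN, MB and MYH7 lay near 0. The mean RPKM over the 6 sheep was 12.4 for CKM, 2.56 for ACTN3, 1.45 for ACTA1, 1.02 for ACTN2, 0.899 for NEB, 0.0535 for MYH7, 0.0411 for MB and 0.00384 for TTN. Only 2 steps of this order, among neighbours, were wider than the spread of the sheep. CKM, from 9.87 to 15.6 RPKM, lay above ACTN3 in 6 of 6 sheep with no overlap of their ranges, and NEB, from 0.274 to 1.91 RPKM, likewise lay above MYH7. ACTN3, ACTA1, ACTN2 and NEB overlapped in their ranges from neighbour to neighbour, as did MYH7, MB and TTN. The ratio of CKM to TTN, as RPKM, was between 1093 and 16230 in single sheep.

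ACTA1 encodes the actin of the skeletal muscle thin filament and spans 777575 to 780357 of chromosome 25 (Oar_v4.0, as are all positions here), on the minus strand. Its counts were 17, 52 and 70 in SM, and 270, 219 and 61 in STH. As CPM these were 0.562, 1.15 and 1.78 in SM and 8.75, 5.19 and 2.02 in STH sheep, with means of 1.17 ± 0.611 and 5.32 ± 3.37 (SD, n = 3 each). The lowest STH sheep exceeded the highest SM sheep, but STH sheep XW8 was closer to the highest SM sheep than to the other STH sheep. SM over STH, the log2 fold change was -2.18, or 4.52-fold higher in STH sheep, with a 95% interval from -3.51 to -0.85 and an edgeR quasi-likelihood adjusted p of 0.240. ACTA1 was called by edgeR's likelihood ratio test (adjusted p = 0.0239), by edgeR's exact test (adjusted p = 0.0273) and by DESeq2 (adjusted p = 0.00851). The study itself called ACTA1 and NEB as higher in STH, with edgeR at the same thresholds. Over the same 6 libraries, the quasi-likelihood test here called neither. Their direction is not independent evidence, as the libraries were the same.

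ACTA1 was a small part of the actin of muscle in this skin. Among the 4 muscle actins ACTA1, ACTC1 (cardiac), ACTA2 and ACTG2 (both smooth muscle), it made up 0.164%, 0.311% and 0.438% of the summed RPKM in SM, and 1.24%, 1.15% and 0.326% in STH. On this scale the breeds overlapped, since STH sheep XW8 lay below SM sheep 30126. ACTA2 had between 340.1 and 413 CPM in SM and between 437 and 727 CPM in STH sheep, and its log2 fold change was -0.65 (95% interval -1.11 to -0.19, edgeR quasi-likelihood adjusted p 0.247). ACTC1, the actin of heart muscle, had 2.96 to 4.33 CPM in SM and 1.37 to 5.06 CPM in STH sheep, so that the breeds overlapped. The muscle actins are near-identical in sequence, and how the authors' counting shared reads among them is not given in the sources used here.

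NEB encodes nebulin, the ruler-like protein along the thin filament, and lies on chromosome 2 from 156690312 to 156893984, on the plus strand. Its counts were 845, 405 and 359 in SM, and 530, 2815 and 1686 in STH. These were 27.9, 8.97 and 9.15 CPM in SM and 17.2, 66.7 and 55.8 CPM in STH sheep, with means of 15.3 ± 10.9 and 46.6 ± 26.0 (SD, n = 3 each). STH sheep XW5 and XW8 stood above the others, whereas SM sheep 128 lay above STH sheep XW3, so that the breeds overlapped. This gave a log2 fold change of -1.61 (95% interval -2.90 to -0.31, edgeR quasi-likelihood adjusted p 0.251). Without SM sheep 128 it was -2.36, with an adjusted p of 0.0260, and NEB was then called, in a comparison that called 7.73% of the 15203 genes it tested. It was -1.25 without STH sheep XW5, and the unadjusted p was above 0.05 without STH sheep XW5 or XW8 and without SM sheep 30034 or 30126. The third thin filament member of the rule, the fast troponin T gene TNNT3, had no gene under its symbol or its gene ID in the files.

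ACTN2 and ACTN3 encode the alpha-actinins of the sarcomere, which cross-link thin filaments in the Z-disc, ACTN3 mainly in fast fibres. ACTN2 lies on chromosome 25 from 9297044 to 9378938 and ACTN3 on chromosome 21 from 43785432 to 43797235, both on the plus strand. ACTN2 had 137, 229 and 200 counts in SM, and 331, 329 and 236 in STH. As CPM, ACTN2 was 4.53, 5.07 and 5.10 in SM and 10.7, 7.79 and 7.81 in STH sheep, with means of 4.90 ± 0.320 and 8.78 ± 1.69 (SD, n = 3 each). The 3 SM sheep were close together and all lay below all STH sheep. The log2 fold change of ACTN2 was -0.84 (95% interval -1.34 to -0.34), or 1.79-fold higher in STH sheep, with an adjusted p of 0.240 in the quasi-likelihood test of edgeR and of 0.0296 in DESeq2. Leaving out single sheep moved it from -0.92 to -0.67 at most.

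ACTN3 did not separate the breeds. Its counts were 218, 431 and 587 in SM, and 328, 272 and 514 in STH. These were 7.21, 9.54 and 15.0 CPM in SM and 10.6, 6.44 and 17.01 CPM in STH sheep, with means of 10.6 ± 3.98 and 11.4 ± 5.32 (SD, n = 3 each). The highest and the lowest sheep were both STH. The log2 fold change was -0.10, with a 95% interval from -0.96 to 0.76 that leaves room for a difference in either direction, and it turned to 0.31 without STH sheep XW8 and to 0.11 without SM sheep 128. Of the 4 alpha-actinin genes, ACTN2 made up 0.275% to 0.351% of the summed RPKM in SM and 0.594% to 0.784% in STH sheep, and ACTN3 0.854% to 1.25% in SM and 0.856% to 2.01% in STH sheep. The remainder was ACTN1 and ACTN4, the alpha-actinins of cells other than striated muscle.

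MYH7 encodes the myosin heavy chain of slow fibres and of the heart, and TTN encodes titin. MYH7, on chromosome 7 from 21094868 to 21116671, had 9, 1 and 20 counts in SM, and 20, 21 and 26 in STH. SM sheep 30034 stood apart with its single count, and SM sheep 30126 reached the lower end of the STH sheep. The log2 fold change of MYH7 was -1.28 (95% interval -3.15 to 0.60, edgeR quasi-likelihood adjusted p 0.391), and it ranged from -2.15 without SM sheep 30126 to -0.72 without SM sheep 30034.

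TTN, on chromosome 2 from 130206206 to 130483885, had 20, 6 and 6 counts in SM, and 18, 74 and 16 in STH. The count of STH sheep XW5 was the highest, and SM sheep 128, at 0.661 CPM, lay above STH sheep XW3 and XW8, at 0.584 and 0.530 CPM. Its log2 fold change was -1.65 (95% interval -3.45 to 0.14, edgeR quasi-likelihood adjusted p 0.294), and it was -2.73 without SM sheep 128 and -0.86 without STH sheep XW5. At these counts the quasi-likelihood test gave an unadjusted p of 0.156 for MYH7 and 0.0662 for TTN. For TTN it was 0.0361 in edgeR's likelihood ratio test and 0.0471 in its exact test. In the quasi-likelihood test it was 0.00742 without SM sheep 128 but 0.330 without STH sheep XW5. That of MYH7 was 0.0480 without SM sheep 30126. Neither gene was called in any fit.

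MYH2, the myosin heavy chain of fast oxidative fibres, was found in the files only by its gene ID, as LOC443471 on chromosome 11 from 29017366 to 29045223. It had 16, 32 and 4 counts in SM, and 27, 24 and 8 in STH. These were 0.529, 0.708 and 0.102 CPM in SM and 0.875, 0.569 and 0.265 CPM in STH sheep, and the breeds overlapped. MYH2 thus had a log2 fold change of -0.35, with a 95% interval from -2.04 to 1.34. Of the neighbouring fast myosins found in the same way, MYH1 had 4 counts over the SM and 28 over the STH sheep, and MYH8 had 0 in all 6 sheep.

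CKM and MB serve the fibre's energy supply. CKM encodes the muscle form of creatine kinase, which regenerates ATP from phosphocreatine, and it lies on chromosome 14 from 51916573 to 51925902. Its counts were 743, 1211 and 1471 in SM, and 1002, 1222 and 965 in STH. These were 24.6, 26.8 and 37.5 CPM in SM and 32.5, 29.0 and 31.9 CPM in STH sheep, with means of 29.6 ± 6.90 and 31.1 ± 1.90 (SD, n = 3 each). CKM was the steadiest of the 7 tested members, with 1.53-fold between the highest and the lowest sheep, and the STH sheep lay within the range of the SM sheep. Its log2 fold change was -0.07 (95% interval -0.49 to 0.35, edgeR quasi-likelihood adjusted p 0.838), and it was 0.05 without SM sheep 128. CKB, the form of creatine kinase found in brain and many other tissues, had a mean of 26.3 RPKM against 12.4 for CKM.

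MB encodes myoglobin, the oxygen store of oxidative fibres, and lies on chromosome 3 from 178635081 to 178651339. It had 4, 4 and 0 counts in SM, and 4, 0 and 2 in STH. Every sheep was at or close to the limit of 3 counts, MB did not pass the filter on low counts, and no fold change is given.

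**Figure D2:**
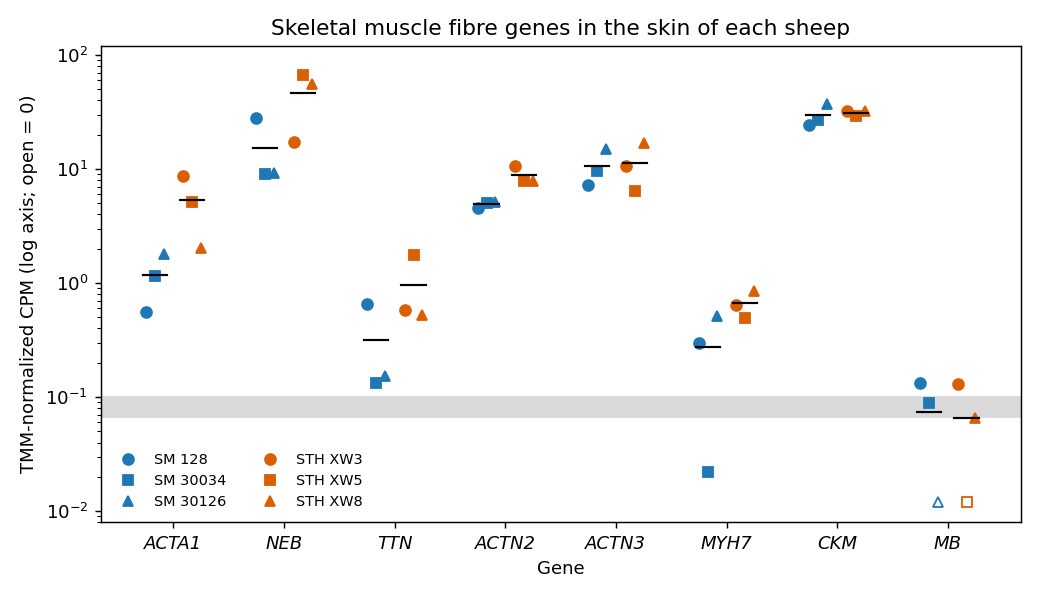
TMM-normalized CPM (vertical axis, logarithmic) of the 8 members in each sheep, with SM sheep in blue, STH sheep in orange and a line at the mean of each breed. The grey band is the CPM of 3 counts and open symbols are counts of 0, and ACTA1 and ACTN2 are the members in which the breeds did not overlap.

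Of the 8 members in the files 7 were tested, and 0 were called by edgeR's quasi-likelihood test, as were 0% of all 15320 genes. At an unadjusted p under 0.05 there were 3 members, ACTA1, NEB and ACTN2, all lower in SM sheep, where 10.8% of all genes tested reached this in the same direction, and 0 members were higher in SM, against 7.21% of all genes. The breeds did not overlap, with STH higher, in 2 of the 7, against 13.3% of all genes tested. DESeq2 called 2 members as lower in SM, ACTA1 and ACTN2, where it called 2.89% of all genes and 1.87% as lower in SM, and the likelihood ratio test called ACTA1, where it called 2.30% and 1.43%. Each of the 7 log2 fold changes was negative, as were 48.6% of those of all genes, though those of ACTN3 and CKM were within their error of 0 and changed sign as sheep were left out.

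The members peaked in different sheep. NEB and TTN, which encode the giant proteins of the sarcomere, were both highest in STH sheep XW5 and lowest in SM sheep 30034 and 30126, and in both SM sheep 128 lay above STH sheep XW3. ACTA1 and ACTN2 were both highest in STH sheep XW3 and lowest in SM sheep 128. CKM and ACTN3 had their highest values in SM sheep 30126 and STH sheep XW8, respectively, and STH sheep XW5, in which NEB and TTN peaked, was the lowest of the 6 for ACTN3. ACTA1 spanned 15.6-fold between the highest and the lowest sheep, NEB 7.44-fold, ACTN2 2.37-fold and ACTN3 2.64-fold.

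**Figure D3:**
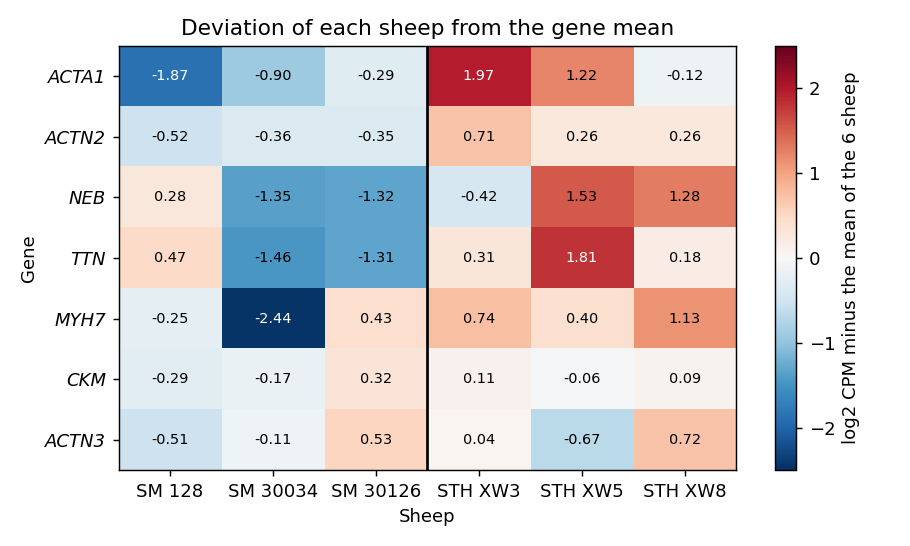
Log2 CPM of the 7 tested members (rows) in each sheep (columns) minus the mean of the 6 sheep, with a prior count of 2, red for higher and blue for lower. SM sheep 128 was lowest for ACTA1, at -1.87, but above its gene mean for NEB and TTN, at 0.28 and 0.47.

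The mean of these deviations over the 7 members was -0.38, -0.97 and -0.29 in SM, and 0.50, 0.64 and 0.50 in STH. The 8 other genes whose log2 CPM over the 6 sheep was most like this mean were DYX1C1 (Pearson r of 0.99 over 6 sheep), GPR83, TMEM69, CCDC59, PCSK1, IGSF9, MRPS36 and TATDN3 (0.97). None of them is on a muscle list examined here. The likeness was ranked over all genes tested and the same 6 libraries underlie every point, so that it is a description only.

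Of the wider skeletal muscle list, 27 of the 56 genes in the files were tested and 0 were called by edgeR's quasi-likelihood test. At an unadjusted p under 0.05, 4 of the 27 were lower in SM sheep, a share near the 10.8% of all genes tested, and 0 were higher, against 7.21% of all genes. The 4 were MYBPC2 and MYBPH, which encode myosin binding proteins of the thick filament, and LDB3 and TCAP, which encode proteins of the Z-disc. In each of the 4, and in no other tested gene of the list, the lowest STH sheep exceeded the highest SM sheep, an order that 13.3% of all genes tested had. MYBPC2 had 2.45, 1.04 and 1.89 CPM in SM, and 3.63, 7.06 and 4.50 CPM in STH, for a log2 fold change of -1.51 (95% interval -2.42 to -0.60, edgeR quasi-likelihood adjusted p 0.240). The study had also called MYBPC2 as higher in STH from these libraries. LDB3, MYBPH and TCAP had log2 fold changes of -1.04, -1.20 and -0.74. DESeq2 called MYBPC2 and LDB3 beside 2.89% of all genes, and the likelihood ratio test called MYBPC2 beside 2.30%. Without SM sheep 128 the quasi-likelihood test called MYBPC2 alone of 25 genes of the list tested, where it called 7.73% of all genes.

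Of the 27 tested genes, 13 had a positive log2 fold change. In edgeR's quasi-likelihood test 0 of these reached an unadjusted p under 0.05, against 7.21% of all genes higher in SM. The lowest SM sheep exceeded the highest STH sheep in 2 of the 27 tested genes, a share below the 12.3% of all genes tested with this order. LMOD2, which has the same order, was too low to be tested. TNNI2, the fast troponin I, had 1.81 to 2.10 CPM in SM and 1.22 to 1.59 CPM in STH, and CACNA1S, the voltage sensor of the muscle calcium channel, had 121, 95 and 72 counts in SM and 25, 67 and 1 in STH. Their log2 fold changes were 0.52 and 1.67, with edgeR quasi-likelihood adjusted p of 0.389 and 0.309, and that of CACNA1S was 2.63 without STH sheep XW5 and 1.12 without STH sheep XW8. Of the tested genes with positive values, MYOZ3, a Z-disc protein, was the most abundant per length, at a mean of 6.33 RPKM, with a log2 fold change of 0.33 (95% interval -0.11 to 0.77). The median log2 fold change over the 27 genes was -0.02, beside 0.02 over all genes tested. The summed RPKM of the wider list was 23.1 to 32.1 in SM and 27.6 to 30.2 in STH sheep, so that the breeds overlapped.

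Smooth muscle genes were far more abundant than the members in sum, at 720.5 to 1286 summed RPKM in single sheep against 13.4 to 22.1, although MYOCD, KCNMB1, CASQ2 and PLN lay below ACTN3 in mean RPKM. Of a list of 19, 18 were in the files and all 18 were tested. The quasi-likelihood test of edgeR called 0 of them, the smallest adjusted p being 0.0996 for MYH11. The likelihood ratio test and DESeq2 each called 12, all lower in SM sheep. These 2 tests called 2.30% and 2.89% of all genes, and 1.43% and 1.87% as lower in SM. Without SM sheep 128 the quasi-likelihood test called 10 of the 18, where it called 7.73% of all genes. At an unadjusted p under 0.05, 13 of the 18 were lower in SM and 0 were higher, against 10.8% and 7.21% of all genes, and in 14 the breeds did not overlap, with STH higher, against 13.3% of all genes. The study had called several of them as higher in STH from these libraries, so that their direction is not independent evidence. MYH11, the smooth muscle myosin heavy chain, had 317, 308 and 331 CPM in SM, and 697, 650.2 and 635 CPM in STH, for a log2 fold change of -1.05 (95% interval -1.36 to -0.75). DES, which encodes the intermediate filament desmin of both smooth and skeletal muscle, had 55.8 to 76.2 CPM in SM and 123 to 208 CPM in STH sheep, which gave a log2 fold change of -1.32 (95% interval -1.81 to -0.82). TPM1, TPM2, SYNPO2, SYNM, PLN and CASQ2 are likewise not particular to smooth muscle. The counts of the list are thus not a measure of smooth muscle alone. PLN, which regulates the calcium pump, had the lowest log2 fold change of the list, -3.35, from 0.764 to 3.57 CPM in SM and 11.5 to 23.8 CPM in STH sheep, and it was -4.39 without SM sheep 128. CASQ2, a calcium-binding protein of the sarcoplasmic reticulum, was the only gene of the list with a positive log2 fold change, 0.37, and overlapped.

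**Figure D4:**
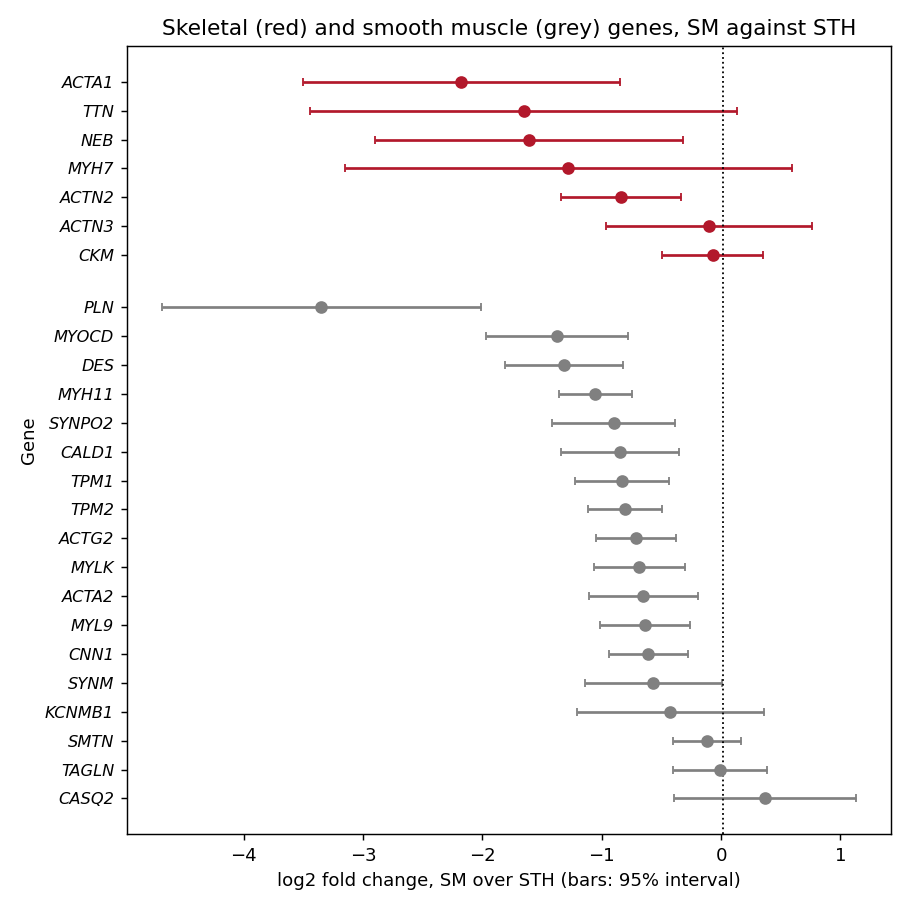
Log2 fold changes (horizontal axis, SM over STH) of the 7 tested members (red) and the 18 smooth muscle genes (grey), with 95% intervals and a dotted line at the median of all genes tested. CKM and ACTN3 lie at -0.07 and -0.10, apart from ACTA1 at -2.18, and 17 of the 18 smooth muscle genes are below 0.

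Markers of other cells in the skin were set beside ACTA1 and ACTN2. None of the adipocyte, nerve, endothelial, keratinocyte or fibroblast markers was called by edgeR's quasi-likelihood test. The shares of all genes at an unadjusted p under 0.05 were 10.8% lower and 7.21% higher in SM. The summed RPKM of the smooth muscle list was 720.5 to 816 in SM and 1063 to 1286 in STH sheep, and that of 8 adipocyte markers, mostly FABP4, was 51.6 to 117 in SM and 225 to 290.2 in STH sheep. Of the 7 adipocyte markers tested, FABP4 and LPL had an unadjusted p under 0.05, both lower in SM, whereas ADIPOQ, a defining marker, had 0.198 to 6.27 CPM in SM and 1.99 to 8.70 CPM in STH sheep and overlapped. PLIN1 and CIDEC, which coat the lipid droplet, had log2 fold changes of 0.14 and 0.40, higher in SM but not past that level. None of the 6 nerve markers reached that level. Of 6 endothelial markers, VWF and CDH5 were higher in SM sheep at an unadjusted p under 0.05, with log2 fold changes of 0.66 and 0.68. Of 5 keratinocyte markers found by symbol 1, DSG3, was lower in SM at that level, and of 6 fibroblast markers 1, DCN. KRT14, a further keratinocyte marker found only by its gene ID, was also lower in SM at that level. Its log2 fold change was -0.51 (unadjusted p 0.0352 in edgeR's quasi-likelihood test), and the breeds overlapped. The summed RPKM of the fibroblast markers was 2510 to 3367 in SM and 2806 to 3441 in STH sheep. The part of these cells in the values of ACTA1 and ACTN2 was not tested.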

How the data were processed

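Each of the 6 skin samples gave 1 library, whose reads the authors aligned in CLC Genomics Workbench to the sheep assembly Oar_v4.0. The authors deposited for each gene the total count, a whole number without normalization, and the RPKM, which were used here for counts between sheep and for levels between genes, respectively. The deposited TPM and a deposited score called CPM were not used. Of the counts from 1 to 20, between 76.4% and 80.2% per sheep were even numbers, and the cause was not tested. A total count of 0 in all 6 sheep was found for 10571 genes, of which 4291 nevertheless had a nonzero RPKM in some sheep, and 0 of the 13 skeletal muscle genes at 0 were among these.

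Counts were normalized by TMM and tested with edgeR 4.0.16 in R 4.3.3 (estimateDisp, glmQLFit and glmQLFTest, breed as the only term). Intervals are 95% intervals of that fit. As alternatives, the likelihood ratio and exact tests of edgeR, DESeq2 1.42.0, RLE and upper quartile normalization, other filters, limma 3.58.1 on log2(RPKM + 0.1) and log2(RPKM + 1), and the omission of single sheep were tried. Chosen after seeing the data were limma-voom and the newer dispersion estimate of edgeR. The tests were checked on simulated data. Libraries of a breed differed by more than sampling noise, with a chi-square per degree of freedom of 50.2 or more. The p-values set the difference between the breeds against the spread between sheep of a breed, which was estimated with information shared over genes.

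The members and lists were chosen with earlier results of these data known. The rule named all members, the 5 tested genes with the smallest p in each direction of the skeletal, smooth and cardiac muscle lists, a few set markers, genes that make up a count of 5 or fewer, and the 8 genes most like the members. Genes named for a count at or near 0, TNNT1, KCNMB1, CIDEC and LMOD2, and the related actin, alpha-actinin, creatine kinase and myosin genes were chosen after their values had been seen. Not every gene under the rule is described. Symbols absent from the files were looked up by gene ID in a RefSeq table of another assembly, which found 4 of 11 and from which no coordinates were taken. Sequences were not analysed here.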

Additional observations from a re-analysis of the deposited data

How the results depend on the processing

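No paired analysis was possible because the sheep labels pair no SM with an STH sheep. Without any sheep left out, the number of members past both thresholds, 0 by the quasi-likelihood test, was 2 with DESeq2 and 1 each with edgeR's likelihood ratio and exact tests. Of the wider skeletal muscle list it was 2, 1 and 1 with these tests, and of the smooth muscle list 12 with each. DESeq2, the likelihood ratio test and the exact test called 2.89%, 2.30% and 2.17% of all genes tested. As each sheep was left out, the counts of the members, the wider list and the smooth muscle list ranged from 0 to 1, 0 to 1 and 0 to 10. Only the fit without SM sheep 128 gave any, and it called 7.73% of all genes tested. The other normalizations, filters, limma fits and the newer dispersion estimate called 0 of each list, and the number of members at an unadjusted p under 0.05 was 3 or 4 in these and from 2 to 4 as sheep were left out. Where it was 4, the member added to ACTA1, NEB and ACTN2 was TTN.

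The log2 fold change of ACTN3 turned to 0.0098 with limma-voom and ranged from -0.42 to 0.31 as each sheep was left out, and that of CKM ranged from -0.26 to 0.0463. ACTC1 turned to 0.14 and 0.0471 on log2(RPKM + 0.1) and log2(RPKM + 1) and to 0.19 with limma-voom, and ranged from -0.46 to 0.25 without single sheep. COL1A1, a fibroblast marker at 0.01, was -0.0007 with at least 10 counts in all 6 sheep and -0.0213 with limma-voom, and ranged from -0.26 to 0.14. TNNI3 and PLIN1 ranged from -0.22 to 0.35 and from -0.33 to 0.35. ACTA1, NEB and ACTN2 were negative under every alternative run, although on log2(RPKM + 1) they were -1.04, -0.65 and -0.39. MYH7 and TTN could not be fitted on RPKM or with 10 counts in all sheep. Depth limits MB, MYH7 and TTN, which had 74 counts or fewer in every sheep. ACTA1 was also low, with 17, 52 and 70 counts in the SM sheep and 61 in STH sheep XW8. Its lack of overlap, 1.78 CPM in SM sheep 30126 against 2.02 CPM in XW8, thus rests on few counts.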

Other observations

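Other members of the same gene families were examined after their values had been seen. Among the myosin heavy chains, MYH7B, a relative of the slow muscle myosin, had 36.2, 40.1 and 51.9 CPM in SM, and 35.6, 31.7 and 38.6 CPM in STH, a mean of 4.56 RPKM beside 0.0535 RPKM for MYH7. The breeds overlapped, with a log2 fold change of 0.28 (95% interval -0.12 to 0.67). MYH14, a non-muscle myosin of epithelia, had 263 to 389 CPM in SM and 180 to 215 CPM in STH sheep, opposite in direction to the smooth muscle myosin MYH11, with a log2 fold change of 0.60 (edgeR quasi-likelihood adjusted p 0.247). CKMT1A, a mitochondrial creatine kinase, had 85.9 to 101 CPM in SM and 56.9 to 67.4 CPM in STH sheep, with a log2 fold change of 0.61 (edgeR quasi-likelihood adjusted p 0.210), whereas CKMT2, the mitochondrial form of striated muscle, had 25 counts over the SM and 20 over the STH sheep. CKM made up 14.2% to 18.3% of the summed RPKM of the 4 creatine kinases in SM sheep and 19.3% to 21.6% in STH sheep, with no overlap, although its own CPM overlapped.

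Of the cardiac muscle list, 7 of 8 genes were in the files and 2 were tested, with 0 at an unadjusted p under 0.05 in edgeR's quasi-likelihood test. TNNI3, the troponin I of heart muscle, had a mean of 4.14 RPKM, above ACTA1 per length, and a log2 fold change of 0.07. The heart markers MYL7 and NPPA had a count of 0 in all 6 sheep, which allows up to 3 counts in each.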
